A study of Mus musculus with 2 samples.

Results

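The lymphocytes described here are the non-T lymphocytes of the stromal vascular fraction of mouse epididymal white adipose tissue (eWAT): natural killer (NK) cells, group 2 innate lymphoid cells (ILC2) and B cells. They were chosen by measured values, the raw transcript counts (unique molecular identifiers, UMIs) of marker genes in each cell barcode of single-cell RNA sequencing (scRNAseq). A barcode with at least 200 genes entered the NK set with at least 2 UMIs of Ncr1, Klrb1c, Klre1 and Gzma together, the ILC2 set with at least 3 UMIs of Gata3, Il1rl1, Areg and Calca together and at least 1 UMI of Ptprc, and the B set with at least 2 UMIs of Cd79a and Cd79b together. Barcodes were kept out when they held more than 1 UMI of Cd3d, Cd3e and Cd3g (T cells), 10 or more of C1qa, C1qb and C1qc (macrophages), 10 or more of Dcn (fibroblast-like stroma), or 3 or more of Cdh5 and Cldn5 (endothelium). Of 2174 barcodes with at least 200 genes, among 2257 in all, 93 were members: 29 passed the NK gate, 35 the ILC2 gate and 29 the B gate, and 0 passed more than 1 gate.

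The study compared C57BL/6 mice (male C57BL/6J in its methods) fed a low-fat diet (LFD) or a high-fat diet (HFD) for 24 weeks from 6 weeks of age. There was 1 library per diet, so differences between diets had no replicate check, and the 95% intervals given below cover counting error only. How many mice were pooled into a library is not given in the sources used here. Diets were taken from the treatment label of each sample, since the free-text protocol of both samples names only the low-fat diet.

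NK cells are innate lymphocytes that kill target cells with granzymes and perforin and are recognised by receptors such as NKp46, the product of Ncr1. ILC2 lack antigen receptors, depend on the transcription factors GATA3 and RORα, and answer IL-33 through its receptor ST2 (Il1rl1) with type 2 cytokines; in lean adipose tissue they are known for sustaining eosinophils and alternatively activated macrophages. B cells carry an antigen receptor whose signalling chains are encoded by Cd79a and Cd79b, and they present antigen on MHC class II.

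The gate genes lie on separate loci of the mouse genome (GRCm38, GENCODE annotation), all protein coding: Ncr1 at chr7:4337724-4345164 and Cd79a at chr7:24897381-24902197 on the forward strand, and Gzma at chr13:113093825-113100981, Gata3 at chr2:9857078-9890034 and Cd79b at chr11:106311341-106314762 on the reverse strand. The assay counts 3′ ends of transcripts. The promoter windows of Ncr1, Gzma, Nkg7 and Xcl1 (250 bases before to 50 bases after the transcription start, RefSeq, GRCm38.p6) are shown because these genes carried the NK results below, and that of Il1rl1 because it is an ILC2 gate gene with a GATA match. They are written 5′ to 3′ on the gene's strand. Capitals mark TGTGGT, the core letters bound by RUNX factors, read on both strands (as ACCACA on the other). In Nkg7 the capitals also mark TCACACCT, a T-box motif, on the opposite strand. In Il1rl1 the first run of capitals is AGATAA, the letters bound by GATA factors. The second run there is the octamer, ATGCAAAT, on the opposite strand.
Ncr1, chr7:4337465-4337764, forward: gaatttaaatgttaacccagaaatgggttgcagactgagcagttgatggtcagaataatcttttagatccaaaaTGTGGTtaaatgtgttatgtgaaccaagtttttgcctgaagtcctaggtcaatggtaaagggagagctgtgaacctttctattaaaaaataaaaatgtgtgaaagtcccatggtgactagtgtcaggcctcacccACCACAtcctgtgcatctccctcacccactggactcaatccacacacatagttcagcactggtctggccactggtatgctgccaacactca
Gzma, chr13:113100932-113101231, reverse: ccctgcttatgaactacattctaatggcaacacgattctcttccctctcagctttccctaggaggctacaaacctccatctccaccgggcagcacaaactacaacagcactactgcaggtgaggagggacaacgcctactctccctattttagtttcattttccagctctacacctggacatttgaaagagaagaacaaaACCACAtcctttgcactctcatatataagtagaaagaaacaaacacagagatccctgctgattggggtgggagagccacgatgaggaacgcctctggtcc
Nkg7, chr7:43436888-43437187, forward: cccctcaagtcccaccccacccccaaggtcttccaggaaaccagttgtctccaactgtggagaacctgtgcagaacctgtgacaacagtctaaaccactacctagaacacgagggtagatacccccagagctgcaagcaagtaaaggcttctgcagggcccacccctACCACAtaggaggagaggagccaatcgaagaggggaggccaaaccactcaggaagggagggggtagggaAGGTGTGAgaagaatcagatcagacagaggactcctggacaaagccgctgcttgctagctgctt
Xcl1, chr1:164935473-164935772, reverse: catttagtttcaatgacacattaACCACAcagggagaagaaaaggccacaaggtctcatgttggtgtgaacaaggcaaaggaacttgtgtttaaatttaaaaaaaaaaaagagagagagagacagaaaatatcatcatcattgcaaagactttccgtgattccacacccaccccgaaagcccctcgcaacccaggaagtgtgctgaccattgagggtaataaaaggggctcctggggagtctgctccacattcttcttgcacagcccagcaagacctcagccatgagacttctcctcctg
Il1rl1, chr1:40429320-40429619, forward: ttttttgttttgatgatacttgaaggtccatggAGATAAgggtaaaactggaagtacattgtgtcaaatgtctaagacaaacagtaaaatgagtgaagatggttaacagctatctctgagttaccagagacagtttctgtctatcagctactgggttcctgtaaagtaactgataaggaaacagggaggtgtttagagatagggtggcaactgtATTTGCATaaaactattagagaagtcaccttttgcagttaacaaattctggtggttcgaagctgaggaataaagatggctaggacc
TGTGGT was held by a window of 9 of the 12 leading and gate genes of the NK set that had one in the RefSeq table, by 1 of 12 such genes of the ILC2-like barcodes described below (a further window of Il1rl1, not printed), by 1 of 6 of the B set, and by 18.9% of all 27025 genes with a window. The 9 were Nkg7, Xcl1, Klrk1, Ly6c2, Klrc2, Ncr1, Klrb1c, Klre1 and Gzma. AGATAA stood in 3 of the 12 windows of the ILC2-like set (Il1rl1, Calca and Csf2), in 0 of 12 of the NK set, in 0 of 6 of the B set and in 12.7% of all genes. Of the other 3 motifs searched, TCACACCT was held by 1 gene of each set (1.48% of all genes), the octamer by 0 of 12 NK, 1 of 12 ILC2-like and 0 of 6 B genes (1.97%), and the EBF motif (TCCC and GGGA with any 2 bases between) by 0 genes of each set (1.06%). A match of letters is a description of the window and not a bound site, and several of the Klr genes are members of 1 gene family.

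The 2 libraries held 7279955 (LFD) and 8389196 (HFD) UMIs in 1057 and 1117 barcodes with at least 200 genes, and 0 barcode sequences were shared between them. Non-T lymphocytes were shallow: the median barcode held 3340 (LFD) and 2030.5 (HFD) UMIs in the NK set and 3035 and 2160 UMIs in the B set, against 6523 and 6598 over all barcodes. In the ILC2 set the medians were 3560 and 10176.5 UMIs. The filter stated in the study's methods, 200 to 2500 genes and under 5% mitochondrial UMIs, would have kept 17 of 29 NK-gated, 11 of 35 ILC2-gated and 1 of 29 B-gated barcodes. The median mitochondrial share was 4.45%, 4.84% and 7.97% in these 3 sets. The doublet caller Scrublet marked 47 of the 2174 barcodes, of which 2 were members, both in the B set.

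NK-gated barcodes carried an NK programme that the gate did not use. Nkg7, a cytotoxic granule protein, was seen in 29 of 29 barcodes at 2593 CPM (UMIs of the gene per 1000000 UMIs of the set; interval 2249 to 2976), against 798 CPM in T cells and 0.228 CPM in C1q-rich macrophages, where 0.182% of barcodes had a UMI at a median depth of 6609 UMIs. The chemokine Ccl5 stood at 7078 CPM, against 5212 CPM in T cells, and was seen in 27 of 29. Klrd1, which encodes the CD94 receptor chain, was seen in 25 of 29 at 882 CPM, and the activating receptor Klrk1 (NKG2D) in 26 of 29 at 1022 CPM. The Ly49 receptor Klra4 was seen in 9 of 29 at 626 CPM and in 0 of 93 T cells. A list of 12 NK markers outside the gate reached 7320 CPM (6733 to 7945), and every barcode showed between 4 and 11 of them. The 12 genes with the highest ratio to all other barcodes were Nkg7, Ccl5, Klrd1, Xcl1, Klra4, Klrk1, Ly6c2, Klra9, Ctsw, Klrc2, Ms4a4b and Ptprcap. Against T cells the gap was smaller for Ccl5 and Ms4a4b (1111 and 1035 CPM) than for Klrd1 (882 and 98.7 CPM).

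T cells, used here only for reference, were not free of other RNA: 22 of 93 had macrophage-marker UMIs, at 4151 CPM over all of them. The NK set held few UMIs of the B, macrophage and T marker lists. The 9 B cell markers summed to 0 UMIs in all 29 barcodes, and the 10 macrophage markers to 12 UMIs in 6 barcodes. Monocyte markers, a list of 6 that includes the leading NK gene Ly6c2, were seen in 23 of 29 barcodes (median 4, highest 13 UMIs) and dendritic cell markers in 11 of 29 (highest 2). A list of 7 T cell markers outside the gate gave 25 UMIs in 11 barcodes, and 1 LFD barcode, with 20 Gzma UMIs, had a Cd3 UMI, 6 Cd8b1 UMIs and no Ncr1. The T cell receptor constant genes (Trac, Trbc1, Trbc2, Trdc and Tcrg-C1) were not found among the counted genes, so the T list lacks them throughout. Of the gate genes themselves, Ncr1 was seen in 25 of 29 barcodes. In an ordering of all barcodes by expression without the gate genes, 43.1% of the 10 nearest neighbours of an NK-gated barcode were NK-gated and 46.6% were T cells, which made up 1.33% and 4.28% of all barcodes. Barcodes that met the NK threshold and were kept out by their Cd3 UMIs numbered 9 on LFD and 4 on HFD. At the threshold itself, 3 LFD and 0 HFD barcodes held exactly 2 gate UMIs, and 1 LFD and 6 HFD barcodes held 1 and were outside.

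**Figure D1:**
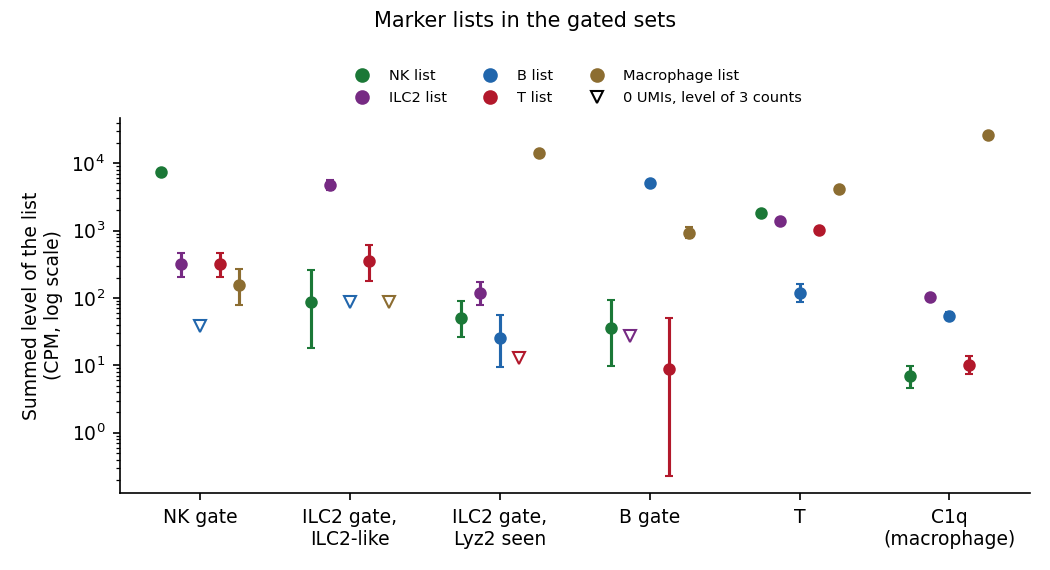
Summed level of 5 marker lists (CPM, log scale; bars, exact Poisson 95% intervals) in each gated set and, for reference, in T cells and C1q-rich barcodes, both libraries pooled; open triangles mark 0 UMIs at the level of 3 counts. The NK gate, the ILC2-like barcodes and the B gate are highest for their own list, while the Lyz2-bearing barcodes of the ILC2 gate have the macrophage list at 14356 CPM and the ILC2 list at 119 CPM.

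The NK gate spanned barcodes with abundant Gzma and barcodes with none. Gzma, a granzyme, was at 10 UMIs or more in 13 of 29 barcodes, at 1 to 9 in 4 and at 0 in 12. This division was made after the values were seen, and it carries no test. Eomes, a transcription factor of circulating NK cells, was seen in 9 of the 13 Gzma-high barcodes and in 1 of the 12 without Gzma. Irf8 stood at 1356 CPM (933 to 1904) against 224 (108 to 412), Klrd1 at 1685 against 381 and Ccl5 at 14218 against 3632. Klra4 and Klra8, both Ly49 receptors of a family whose near-identical members may share reads, had 38 and 10 UMIs in the Gzma-high barcodes and 6 and 0 in those without Gzma. Perforin (Prf1) was seen in 4 barcodes on each side, and Tbx21, which encodes T-bet, in 4 and 5.

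Another group of genes ran the opposite way. The chemokine Xcl1 was seen in 2 of 13 Gzma-high barcodes and in 11 of 12 without Gzma, at 247 (90.5 to 537) and 986 (717 to 1324) CPM. Ramp1, a subunit of the CGRP receptor, had 0 UMIs in the Gzma-high barcodes and 16 UMIs in 8 barcodes without Gzma. Tmem176b, Tmem176a, Gpr183 and the retention marker Cd69 likewise had 0 UMIs on the Gzma-high side, and 18, 13, 11 and 9 UMIs on the other. Lymphotoxin beta (Ltb) had 2 and 20 UMIs. The 2 sides differed in depth, with medians of 1736 UMIs in Gzma-high barcodes and 3625 in those without Gzma. Those without Gzma included the 2 barcodes that held all 132 Cd74 UMIs of the set, and 1 barcode with 11 Mki67 UMIs. The Gzma-high ones included the barcode with a Cd3 UMI and 6 Cd8b1 UMIs, which held 51 of their 346 Ccl5 UMIs. The parts of depth and of these barcodes in the differences were not tested.

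**Figure D2:**
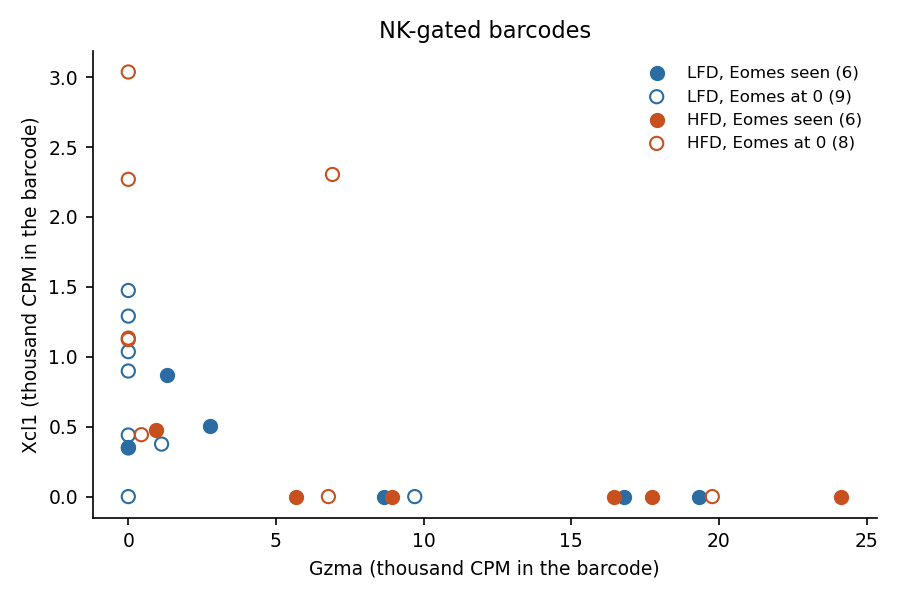
Gzma against Xcl1 in each of the 29 NK-gated barcodes (in units of 1000 CPM within the barcode), coloured by diet and filled where at least 1 Eomes UMI was seen. Of the 13 barcodes with 10 or more Gzma UMIs, 11 have no Xcl1, and barcodes of both diets lie along each axis.

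The share of NK-gated barcodes did not separate the diets. It was 1.42% on LFD (15 of 1057, exact interval 0.796 to 2.33%) and 1.25% on HFD (14 of 1117, 0.687 to 2.09%), a log2 ratio of -0.18 (-1.22 to 0.86). T cells, defined by 2 or more Cd3 UMIs with fewer than 10 UMIs of the C1q genes, fewer than 10 of Dcn and fewer than 3 of Cdh5 and Cldn5, went from 6.81% (72 barcodes) to 1.88% (21), a log2 ratio of -1.86 (-2.55 to -1.17). The interval for NK cells includes both equal shares and a drop of more than 2-fold. Fewer cells of a type and fewer cells of that type recovered in dissociation cannot be told apart.

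Within the NK set, 343 genes had at least 30 UMIs over both diets, and 5 of them (1.46%) were higher and 12 (3.50%) lower on HFD by at least 2-fold with an interval that left out 1. Gzma was at 2290 CPM on LFD (111 UMIs in 7 barcodes) and 5569 CPM on HFD (166 UMIs in 10 barcodes), a ratio of 2.43 (1.90 to 3.12). Gzma belongs to the gate, so its level is a description of the members and no independent result. The other genes higher on HFD were Irf8 (ratio 2.09, 1.14 to 3.89), the surface protein Cd53 (2.21), the endoplasmic reticulum chaperone Hsp90b1 (2.14) and the gate gene Klre1 (2.11). Barcodes with 10 or more Gzma UMIs numbered 5 of 15 on LFD and 8 of 14 on HFD (their part in the ratios of Gzma and Irf8 was not tested). With every barcode thinned to 1000 UMIs the Gzma ratio was 1.72, that of Irf8 1.39 (0.56 to 3.55) that of Hsp90b1 0.88 (0.32 to 2.33), that of Klre1 2.14 (0.57 to 9.72) and that of Cd53 6.96 (1.58 to 63.6). Of the 5 genes, 0 were then past the criterion, but only Gzma still had 30 UMIs. Under the study's cell filter 201 genes had at least 30 UMIs, and 11 were higher and 11 lower on HFD. Of these, 2 and 4 were among the higher and lower genes of the whole set. There the Gzma ratio was 4.46 and that of Irf8 7.32 (3.04 to 20.2), while Klre1 (2.23, 0.98 to 5.04), Cd53 (2.45, 0.94 to 6.44) and Hsp90b1 (2.23, 0.92 to 5.42) no longer met the criterion. With the gate 1 UMI higher only Hsp90b1 of the 5 met it, and the ratio was 1.87 for Gzma, 1.61 (0.88 to 3.0) for Irf8 and 1.71 (0.91 to 3.28) for Klre1. Cd53 then stood at 3.97 (1.52 to 12.1), but its 6 LFD and 19 HFD UMIs were under the minimum of 30.

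Lower on HFD were 4 MHC class II genes. Cd74 had 132 UMIs on LFD and 0 on HFD, and H2-Ab1 had 35 and 0, H2-Aa 58 and 1, and H2-Eb1 39 and 1. All Cd74 UMIs came from 2 LFD barcodes with 60 and 72 UMIs, which held Ncr1 (2 and 1 UMIs) and 0 UMIs of the B markers. The same 2 barcodes held 2 and 5 UMIs of Lyz2 and 7 and 8 UMIs of Il1b, all 15 Il1b UMIs of the LFD barcodes, and the part of myeloid RNA in the class II values was not tested. The activating receptor gene Klrc2 (ratio 0.43, 0.17 to 0.97), the chemokine Ccl4 (0.49, 0.28 to 0.81), the phosphatase Dusp1 and the myosin Myh9 (0.31) were also lower in the whole set. Without these 2 barcodes, 0 of 298 genes were higher and 5 (1.68%) lower by the same criterion, and the Gzma ratio was 1.91 (1.49 to 2.45). Of the 12 genes lower in the whole set, only Klrc2 and Vim were then still past it, and Ccl4 had a ratio of 0.56. After thinning, Ccl4 stood at 0.92 (0.39 to 2.14) and Klrc2 at 0.67 (0.17 to 2.32). The Klrc2 interval also included 1 under the study's cell filter (0.64, 0.21 to 1.63) and with the gate 1 UMI higher (0.46, 0.18 to 1.06). Nkg7 was at 2394 and 2918 CPM and Ccl5 at 7057 and 7112 CPM, with intervals that overlapped. Of 24 NK receptors, 22 were seen, 5 had enough UMIs, and 1 (Klrc2) was past 2-fold (Klre1, a gate gene, is not on that list). Of 13 cytotoxic granule genes, 5 had enough UMIs and 0 were past 2-fold (Gzma, a gate gene, is not on that list), with a median log2 ratio of 0.29 beside 0.06 over all 343 genes.

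The ILC2 gate gave 2 unlike groups of barcodes, and the label fitted only 1 of them. The 12 leading genes of the 35 barcodes were Lyz1, Ear2, Fcrls, Ltb4r1, Il1b, Tnip3, Samsn1, Ccr2, Aldh1a2, Gpr65, Tnfaip3 and Traf1, a list with myeloid genes at its head. The barcodes divided by Lyz2, the lysozyme of monocytes and macrophages: 22 had Lyz2 UMIs (median macrophage-list UMIs 150.5, range 9 to 660) and 13 had none. Of the 13, 1 was rich in the mast cell protease genes Cma1 (82 UMIs) and Cpa3 (33 UMIs). The other 12 are called ILC2-like here. The division by Lyz2 and Cpa3 was chosen after the values were seen.

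The ILC2-like barcodes showed the genes of the cell type. Gata3 was seen in 9 of 12 barcodes (963 CPM, 663 to 1353), Il1rl1 in 9 (993 CPM), Areg, which encodes the growth factor amphiregulin, in 9 (1255 CPM) and Calca, the gene for CGRP, in 2 (380 CPM). These 4 chose the barcodes and are given as description. Of 12 ILC2 markers outside the gate, 11 were seen, with a median of 4.5 and a range of 2 to 8 per barcode. Rora, the transcription factor ILC2 depend on, was seen in 11 of 12 barcodes at 1781 CPM (1362 to 2287), against 291 CPM in T cells; it was also seen in 61.2% of Dcn-rich barcodes. The IL-7 receptor chain Il7r and the IL-2 receptor chain Il2ra were each seen in 9, Klrg1 in 6 and Arg1, the arginase that ILC2 express, in 5 of 12. The type 2 cytokine genes were sparse: Il5 had 4 UMIs in 1 barcode and Il13 had 1 UMI in 1 barcode.

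Leading genes of the ILC2-like barcodes included Tnfsf11, Csf2, Rgs2, Arg1, Cd69, Samsn1, Vps37b, Rora, Tnfaip3, Il2ra and Itgb7. Csf2, the cytokine GM-CSF, stood at 496 CPM against 24.0 CPM in T cells and was seen in 4 of 12 barcodes. Tnfsf11, which encodes RANKL, stood at 555 CPM against 80.0. A list of 17 immediate-early and stress genes summed to 25514 CPM in these barcodes, and to 9518 and 7948 CPM in the NK and B sets. Cd3 genes were at 0 UMIs in 12 of 12 barcodes, as were Cd4, Cd8a and Cd8b1, the 10 macrophage markers and the 9 dendritic cell markers; the Cd3 genes were limited by the gate. The list of 7 T markers was seen in 5 of the 12 barcodes, with at most 4 UMIs, and the list of 6 monocyte markers in 9, with at most 10. Lyz2 is 1 of the macrophage markers and was at 0 by the division. Bcl11b, shared by T cells and ILC2, was seen in 7 barcodes. Among their nearest neighbours 38.3% were ILC2-like, 33.3% were T cells and 0 were C1q-rich macrophages.

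All 12 ILC2-like barcodes came from the LFD library. They were 1.14% of its barcodes (exact interval 0.588 to 1.97%), and 0 of 1117 HFD barcodes qualified, which allows a share of up to 0.269% by the level of 3 counts (exact upper limit 0.330%). Set against the level of 3 counts the LFD share was at least 4.23-fold higher, leaving aside the counting error of the LFD share. The 12 ILC2-like barcodes had a median mitochondrial share of 4.77%, and 8 would have passed the study's cell filter. Those of 672, 832 and 902 UMIs had mitochondrial shares of 23.5%, 26.6% and 20.5%. Among all barcodes with at most 1 Cd3 UMI and none of the other exclusions, whether gated or not, Gata3 was seen in 16 on LFD (1.51%), of which 9 were the ILC2-like ones, and in 2 on HFD (0.179%). Among T cells it was seen in 19 of 72 on LFD and 1 of 21 on HFD. As background, Gata3 was seen in 1 of 549 C1q-rich and 1 of 670 Dcn-rich barcodes at median depths of 6609 and 8251 UMIs, against 2861 UMIs in the ILC2-like barcodes. In endothelium it was seen in 3 of 149 LFD and 6 of 207 HFD barcodes.

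**Figure D3:**
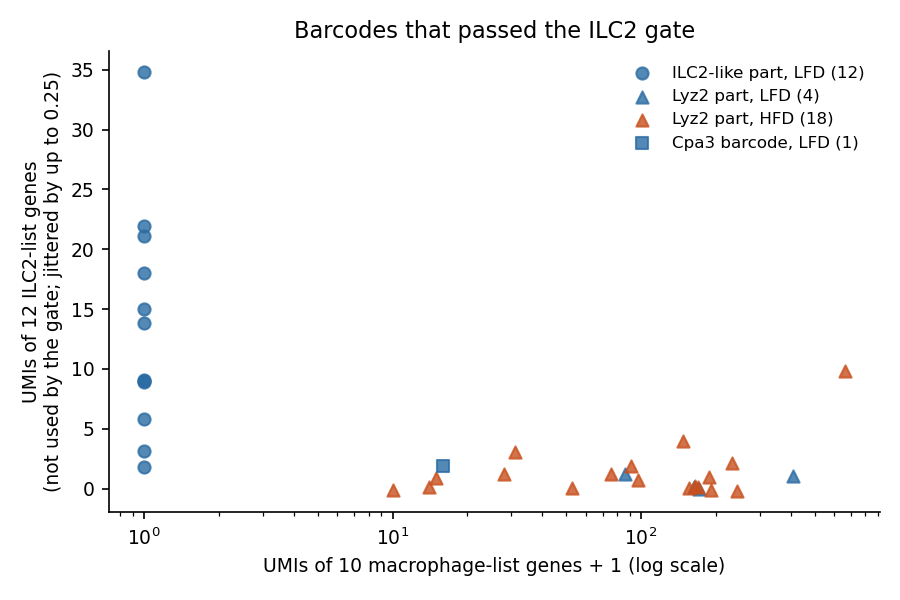
UMIs of 12 ILC2 markers outside the gate (vertical) against UMIs of 10 macrophage markers plus 1 (horizontal, log scale; Lyz2 is among the 10; points jittered vertically) in each of the 35 ILC2-gated barcodes. The 12 ILC2-like barcodes, all LFD, hold 2 to 35 ILC2-marker UMIs at 0 macrophage-marker UMIs, and the 22 Lyz2-bearing barcodes hold 0 to 10.

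The Lyz2-bearing barcodes passed the gate on other grounds. Gata3 and Calca were at 0 UMIs in all 22, Rora was at 0, and Areg was seen in 20 and Il1rl1 in 12. Areg alone reached the 3 UMIs of the gate in 17 of 22 barcodes and Il1rl1 alone in 4. Areg stood at 582 CPM (489 to 688), against 45.2 CPM in C1q-rich macrophages, a difference that the gate itself fixes. Their median depth was 11486 UMIs, against 2861 in the ILC2-like barcodes, and the part of depth in passing the gate was not tested. With every barcode thinned to 1000 UMIs before gating, 7 LFD and 2 HFD barcodes passed. Between 3 and 7 of the 10 macrophage markers were seen in each Lyz2-bearing barcode, the MHC class II genes summed to 29800 CPM, and T markers were at 0 UMIs.

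Their leading genes were Lyz1, Ear2, Fcrls, Il1b, Tnip3, Aldh1a2, Slc7a11, Cd226, Cd24a, Cebpe, Ccr2 and Unc119. Il1b, the inflammatory cytokine, was seen in 19 of 22 at 1441 CPM (1292 to 1603), against 197 CPM in C1q-rich macrophages. Ear2, an eosinophil-associated ribonuclease also made by monocyte-derived cells, was seen in 19 at 854 CPM, and Ccr2, the monocyte chemokine receptor, in 20 at 820.5 CPM. They are described by their rule and given no cell type name, since members of several lists were seen in them: monocyte markers in 22, dendritic in 21, plasma cell in 20, fibroblast in 19 and ILC2 markers in 12 of 22, beside the macrophage markers. The levels were unlike, with median UMIs per barcode of 150.5 for the macrophage list and 56.5 for the monocyte list. The medians were 5.5 for dendritic, 3.5 for plasma cell, 2 for fibroblast and 1 for ILC2 markers. Their nearest neighbours were other barcodes outside every class (47.3%), each other (28.2%) and C1q-rich macrophages (22.7%).

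The 2 groups went in opposite directions with diet. Lyz2-bearing barcodes were 0.378% of the LFD library (4 barcodes) and 1.61% of the HFD library (18), a log2 ratio of 2.09 (0.53 to 3.65). The whole gate was at 1.61% in both libraries (17 and 18 barcodes, log2 ratio 0.00, -0.95 to 0.95). At the threshold, 1 LFD and 3 HFD barcodes held exactly 3 gate UMIs, and 8 LFD and 6 HFD barcodes held 2. The Cd3 limit kept out 16 LFD and 2 HFD barcodes that met the ILC2 threshold, and the C1q limit kept out 8 and 16.

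**Figure D4:**
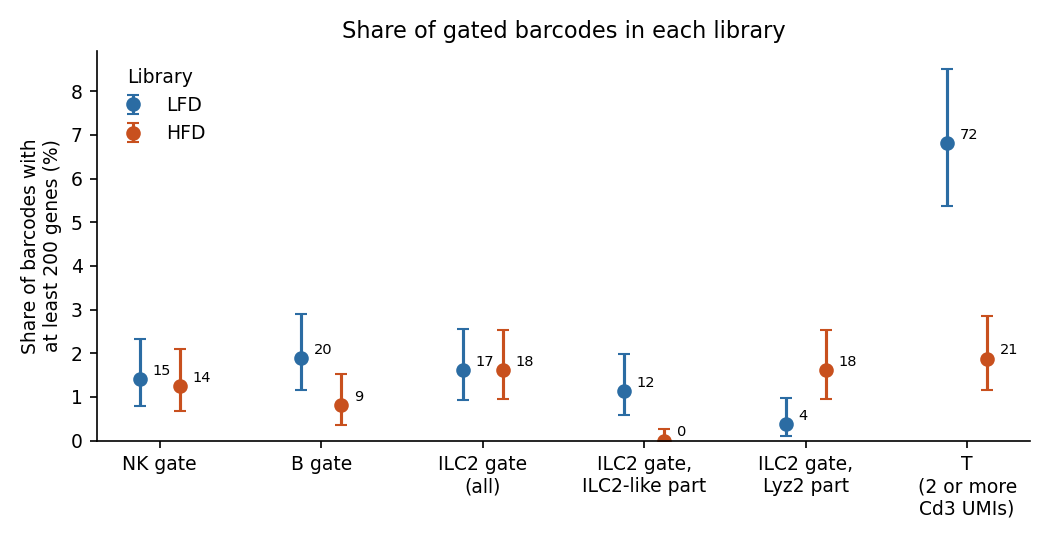
Share of each gated set among barcodes with at least 200 genes in the LFD and HFD libraries (bars, exact binomial 95% intervals; for 0 barcodes, the level of 3 counts), with the number of barcodes beside each point. NK shares are 1.42% and 1.25%, B shares 1.89% and 0.806%, and the ILC2 gate is 1.61% in both libraries while its 12 ILC2-like members are all LFD and its Lyz2-bearing members are 4 LFD and 18 HFD barcodes.

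Within the whole ILC2 gate, whose members differ in kind between the diets, many genes differed. Of 1365 genes with at least 30 UMIs, 146 (10.7%) were higher and 85 (6.23%) lower on HFD, and with scaling by the median of gene ratios 112 were higher and 106 lower. The median log2 ratio over all genes tested was 0.13, against 0.06 in the NK set and 0.02 in the B set. In all, 7 of the lower genes had 0 UMIs on HFD and so tied for the lowest ratio. They were Rora (61 UMIs on LFD, 0 on HFD), the gate gene Gata3 (33 UMIs on LFD, 0 on HFD, a description of the members), Ctla2a (51 and 0), Ly6e (47 and 0), and the mast cell genes Cma1 (82 and 0), Tpsb2 (67 and 0) and Cpa3 (34 and 0). Every Cma1 UMI and all but 1 of the Cpa3 UMIs came from the Cpa3-rich barcode. The genes with the highest ratios were macrophage genes: Mmp12 had 165 UMIs on HFD, of which 156 were in 1 barcode, Trem2 had 52, of which 51 were in 1 barcode, and Gpnmb had 35, of which 34 were in 1 barcode, and all 3 had 0 on LFD. Mgl2, a lectin of alternatively activated macrophages, rested on more barcodes, with 3 UMIs in 3 LFD barcodes and 65 UMIs in 11 HFD barcodes. Of 17 immediate-early genes, 14 had enough UMIs and 7 were past 2-fold, all lower on HFD (Egr1, Fos, Fosb, Ier2, Jun, Junb and Jund), with a median log2 ratio of -0.93.

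Among Lyz2-bearing barcodes alone, 4 from LFD and 18 from HFD, 55 genes (4.63%) were higher and 35 (2.95%) lower on HFD of 1188 with at least 30 UMIs. Lyz2 was at 13106 CPM on LFD and 11861 on HFD. Areg, a gate gene whose level the rule used, was at 427 and 634 CPM. Tyrobp, the signalling adapter of myeloid and NK receptors, was at 1145 and 2083 CPM. The chemokine Ccl24 had 116 UMIs in 2 LFD barcodes, 90 of them in 1, and 4 UMIs in 3 HFD barcodes.

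The gate genes Cd79a and Cd79b, which chose the B set, were seen together in 28 of 29 barcodes, and in C1q-rich macrophages 0% of barcodes had a Cd79a UMI and 6.01% a Cd79b UMI. B-gated barcodes also carried B cell genes that the gate did not use. Of their nearest neighbours without the gate genes, 87.6% were B-gated. A list of 9 B markers outside the gate summed to 5104 CPM (4693 to 5541), with a median of 5 markers per barcode and at least 1 in 28 of 29, the exception being an HFD barcode of 533 UMIs. Ly6d, an early and persistent B lineage surface protein, was seen in 28 of 29 at 2386 CPM (2108 to 2691), against 8.0 CPM in T cells and 0 in macrophages. The leading genes included Ly6d, Ms4a1, Mzb1, Fcmr, Ltb, Siglecg, Gm43603, Napsa, Bank1, Cd2 and Plac8. Ms4a1, which encodes CD20, was seen in 27 of 29 at 978 CPM, and Fcmr, the IgM Fc receptor, in 18 at 368 CPM. The invariant chain Cd74 stood at 11222 CPM and was seen in 29 of 29. The constant genes of immunoglobulins were not analysed here.

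B-gated barcodes differed among themselves. Of the 29, 2 LFD barcodes held 673 and 716 UMIs of Jchain, the joining chain of secreted antibodies, with 13 and 16 UMIs of Xbp1, the transcription factor of antibody secretion. They also had 25 and 20 UMIs of Mzb1. Jchain was at 0 UMIs in the other 27. Scrublet marked both as doublets, and they kept Ly6d (27 and 55 UMIs). Another LFD barcode had 63 Lyz2 UMIs (called Lyz2-rich below, with a cut of 10 UMIs), and 1 more had 1. Fcer2a or Cr2, genes of follicular and marginal zone B cells, were seen in 6 barcodes, Zbtb32 or Bhlhe41, transcription factors known from B-1 cells, in 5, and both pairs together in 0. These UMIs were few, with at most 4 of a gene in a barcode. Plac8 and Mzb1 were seen together without Jchain in 10 barcodes, 5 of 20 on LFD and 5 of 9 on HFD.

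The share of B-gated barcodes was 1.89% on LFD (20 of 1057, exact interval 1.16 to 2.91%) and 0.806% on HFD (9 of 1117, 0.369 to 1.52%), a log2 ratio of -1.23 (-2.36 to -0.10). Without the 2 Jchain-rich barcodes and the Lyz2-rich one the log2 ratio was -1.0 (-2.16 to 0.16), and without barcodes marked by Scrublet, a doublet caller, it was -1.07 (-2.22 to 0.07). Both of these intervals include equal shares. At the threshold, 0 LFD and 1 HFD barcodes held exactly 2 gate UMIs, and 3 and 4 held 1. All 3 gates together made up 4.92% (52 barcodes) and 3.67% (41), a log2 ratio of -0.42 (-1.0 to 0.16).

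Within the B set, 380 genes had at least 30 UMIs, of which 8 (2.11%) were higher and 30 (7.89%) lower on HFD. H2-Q7, an MHC class I gene, was at 257 CPM on LFD (22 UMIs in 10 barcodes) and 970 CPM on HFD (25 UMIs in 5 barcodes), a ratio of 3.78 (2.04 to 7.03). Of its HFD UMIs 19 were in 1 barcode, and with the highest barcode of each library left out the ratio was 1.33 (0.42 to 3.63). H2-Q7 has near-identical neighbours, so reads may be split among them. Siglecg, an inhibitory receptor of B cells, was at 175 and 582 CPM, and its ratio of 3.32 became 1.28 (0.36 to 3.82) in the same way. Plac8 was at 595 and 1319 CPM (ratio 2.22, 1.39 to 3.49) and Cox7a2l at 443 and 1008 CPM (2.27, 1.33 to 3.84), and both stayed past 2-fold with the highest barcodes left out. Plac8 did not without the 2 Jchain-rich and the Lyz2-rich barcode (1.80) or after thinning (1.67, 0.67 to 3.97), and Cox7a2l did not without the barcodes marked by Scrublet (1.93, 1.13 to 3.27). The proteasome genes Psme1 (2.45) and Psmb1 (2.40) also met the criterion in the whole set. Neither met it with the highest barcodes left out or without the 2 Jchain-rich and the Lyz2-rich barcode (2.18, 0.99 to 4.77, and 1.80, 0.81 to 3.89), and Psmb1 did not meet it without the barcodes marked by Scrublet.

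Genes lower on HFD included several that rested on 1 or 2 barcodes. Jchain had 1389 UMIs on LFD, all in the 2 Jchain-rich barcodes, and 0 on HFD. Fn1 (62 UMIs) and Cxcl2 (59 UMIs) each came from 1 LFD barcode. Fkbp2 had 35 UMIs in 8 LFD barcodes, 17 of them in 1 barcode, and 5 UMIs were left without the 2 Jchain-rich and the Lyz2-rich barcode. Akap13, a signalling scaffold, had 31 UMIs in 15 of 20. Both had 0 on HFD. Among 17 immediate-early and stress genes 9 had enough UMIs, and Fos (653 and 155 CPM), Junb (2346 and 1086 CPM) and Nr4a1 (34 UMIs and 0) were lower, with 0 higher. The median log2 ratio of that list was -0.76 beside 0.02 over all 380 genes, and without the 2 Jchain-rich and the Lyz2-rich barcode it was -0.07, with 1 of 6 genes lower.

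Without the 3 barcodes that stood apart, 292 genes could be compared, and 4 (1.37%) were higher and 10 (3.42%) lower on HFD. H2-Q7 (ratio 3.28, with 19 of its 25 HFD UMIs in the same barcode as before), Mzb1 (2.81), Hnrnpf (2.10) and Cox7a2l (2.09) were higher on HFD, and Dnaja1 (0.16), Tubb5 (0.18), Tagln2 (0.31), Mcl1 (0.32), a survival factor of lymphocytes, and Cdc42 (0.35) were among the lower. In the whole B set the Mzb1 ratio was 1.30 (0.80 to 2.06), and there it was 1.06 with the highest barcodes left out and 0.63 (0.11 to 2.32) after thinning. Of its 27 HFD UMIs, 13 were in 1 barcode. Junb (ratio 0.42) stayed past 2-fold, and Fos (24 UMIs) and Nr4a1 (22 UMIs, 0 of them on HFD) had fewer than 30 UMIs and were not compared. Of 9 B markers, 5 had enough UMIs and 1 was past 2-fold: Fcmr, one of the leading B genes, had 35 UMIs in 14 of 17 LFD barcodes and 5 UMIs in 3 of 9 HFD barcodes (ratio 0.36, 0.11 to 0.91). In the whole B set its ratio was 0.46 (0.14 to 1.18). Of 20 genes of B cell receptor signalling, 4 had enough UMIs and 0 were past 2-fold, with a median log2 ratio of -0.38, and in the whole B set it was 5 and 0, with a median of 0.03. Of 10 class II genes, 5 had enough UMIs and 0 were past 2-fold in either set. In the whole B set, Ly6d was at 2427 CPM on LFD and 2249 CPM on HFD, Ms4a1 at 922 and 1163, Cd74 at 11424 and 10549 and H2-Aa at 3653 and 3878, with overlapping intervals.

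**Figure D5:**
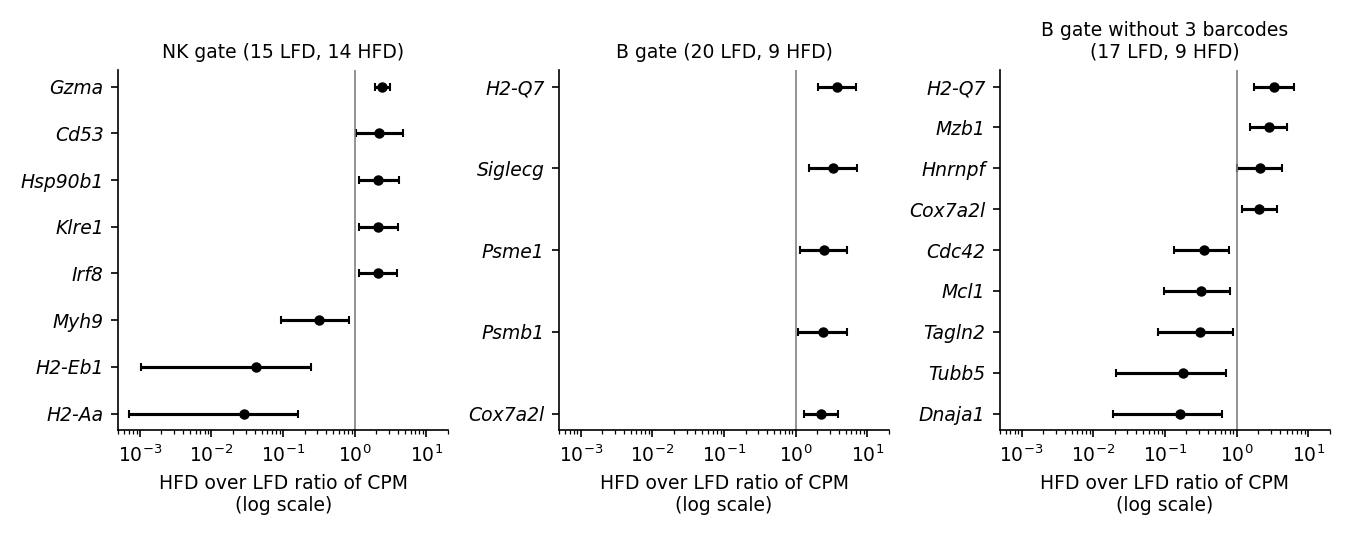
HFD over LFD ratio of CPM (log scale, bars for exact conditional 95% intervals) in NK-gated barcodes, in B-gated barcodes and in B-gated barcodes without the 2 Jchain-rich and the Lyz2-rich barcode. Each panel takes the 5 highest and 5 lowest ratios past 2-fold, or fewer, and draws those with UMIs on both diets. The panel of the whole B set has no lower gene, because its 5 lowest all had 0 UMIs on HFD, although 30 genes were lower. H2-Q7 is highest in both B panels (3.78 and 3.28), and genes with 0 UMIs on 1 diet, among them 9 that tie for the lowest ratio in the whole B set, are not drawn.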

How the data were processed

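Stromal cells of eWAT were profiled by droplet scRNAseq (10x Genomics 3′ chemistry) in 1 library per diet. The authors aligned the reads to mm10 and counted them with Cell Ranger (version 3.0.2 in the header of the deposited tables), and the deposited UMI count matrices of 27998 genes were used as they stand. The methods' stated capture per condition lies between the 1113 (LFD) and 1144 (HFD) deposited barcodes, and the stated cell filter leaves 294 and 352. No authors' cell annotation was used here. Members and gene lists were chosen with earlier results of these data known.

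UMIs were summed per gated set and library and divided by the set's total (CPM), with exact Poisson intervals. Shares have exact Clopper-Pearson intervals, share ratios Katz intervals, and diet ratios exact conditional binomial intervals, all at 95% and for counting error only. A share of 0 is given the level of 3 counts. With 1 library per diet there was no test, and no p-value is given. Genes named are the 12 with the highest ratio to all other barcodes (20 CPM added, seen in at least 25% of barcodes), the 5 highest and 5 lowest diet ratios among genes with at least 30 UMIs, at least 2-fold and an interval leaving out 1, and list genes. Divisions by Lyz2, Cpa3, Gzma, Jchain and class II UMIs were chosen after seeing the data. The ratio calculation was tested on simulated data. Doublets were marked with Scrublet in scanpy 1.11.5 (expected rate 1%) and kept. The 10 nearest neighbours were found on 30 principal components (scikit-learn 1.9.0) of 2000 genes, gate genes and Lyz2 left out. Gene coordinates are from GENCODE (27645 of 27998 identifiers matched). Some leading genes are not reported here.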

Additional observations from a re-analysis of the deposited data

Results flagged for a closer look

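The diet difference of the ILC2 gate ran in opposite directions in its 2 groups of barcodes. Among the barcodes with at least 1 Lyz2 UMI (4 LFD, 18 HFD) the log2 ratio of the shares, HFD over LFD, was 2.09, with an interval of 0.53 to 3.65. Among those without Lyz2 (13 LFD, 0 HFD) it was -2.20 when the HFD count was set to the level of 3 counts. The difference between the 2 groups was not tested, since each diet has 1 library.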

How the results depend on the processing

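The cause of each change below was not tested. For the ILC2 gate the log2 share ratio moved from 0.00 to -1.67 under the study's cell filter, and, in alternatives chosen after seeing the data, to -1.91 with barcodes thinned to 1000 UMIs, -2.20 with no Lyz2 UMI, -2.08 also under 10 Cpa3 UMIs, -2.08 with more ILC2 than myeloid markers seen, and 2.09 with Lyz2. The NK and B log2 share ratios stayed within their reported intervals under every alternative that could be computed (9 and 8), but the B interval itself included equal shares without Scrublet-marked barcodes (-1.07, -2.22 to 0.07) and, in an alternative chosen after seeing the data, without its 3 outlying barcodes. Under the study's cell filter, gene comparisons of the ILC2 and B sets and the B share were not run, because 3 (ILC2) and 0 (B) HFD barcodes remained. Gene counts rest on few UMIs: with a minimum of 10 UMIs the genes past 2-fold numbered 67 (NK), 445 (ILC2 gate) and 85 (B), without a minimum 102, 557 and 106, and after thinning to 1000 UMIs 4, 55 and 6, against the reported 17, 231 and 38. With the highest barcode of each gene left out of each library they numbered 7 (NK) and 23 (B), and 5 and 15 of these, in the same direction, were among the reported genes. In the ILC2 gate that setting gave 238 genes, 190 higher and 48 lower on HFD, against the reported 146 and 85. Without a minimum of UMIs 239 were higher and 318 lower there. In alternatives chosen after seeing the data, 5 remained in the NK set without its class II-bearing barcodes, 90 in Lyz2-bearing barcodes and 14 in the B set without its 3 outlying barcodes. No paired analysis was possible because each diet has 1 library.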
